A study of Mus musculus with 6 samples.

Results

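The genes of the immunoproteasome and of MHC class I peptide loading were examined in cortical RNA of mice at d10 post microglia depletion. The members were chosen by name, as the rows of the deposited gene table with the symbols Psmb8, Psmb9, Psmb10, Psme1, Psme2, Tap1, Tap2, Tapbp, Tapbpl and Erap1. All 10 were found among the 23366 genes of the table, and all 10 passed the filter of the test, an average of 0.5 FPKM or more across 6 mice (FPKM counts fragments relative to transcript length and sequencing depth). The depleted group was 3 mice with CX3CR1-CreERT2+/- and iDTR+/-, named A4, A5 and A6, in which tamoxifen followed by diphtheria toxin kills cells that carry the toxin receptor. The control group was 3 littermates with CX3CR1-CreERT2+/- and no iDTR, named A1, A2 and A3. The strain named in the methods is C57BL/6, beside the wild type, and it is not stated separately for the crossed lines. Both groups thus carry CX3CR1-CreERT2+/-, and mice of both genotypes were given tamoxifen. The genotypes and the tamoxifen are taken from the methods of the study, as the labels say only control or microglia-depleted. Whether the controls received the toxin is not given in the sources used here, nor are the ages of these mice. The Cre is driven by the Cx3cr1 promoter, which is active in microglia and in some other myeloid cells, and microglia had repopulated the brain by d10, so that "depleted" names the treatment and not an absence of these cells.

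Proteasomes degrade cytosolic proteins to peptides. In the immunoproteasome, the catalytic subunits Psmb5, Psmb6 and Psmb7 are replaced by Psmb8, Psmb9 and Psmb10, and the PA28 ring of Psme1 and Psme2 can cap the core. The Tap1/Tap2 transporter carries peptides into the endoplasmic reticulum, where Erap1 trims them and tapasin (Tapbp) and the tapasin-related protein (Tapbpl) help to load and edit them on class I heavy chains with B2m. Interferons induce many of these genes, and healthy brain tissue is known for low class I expression. In GENCODE M21 (GRCm38), 5 of the 10 genes, Tapbp, Psmb9, Tap1, Psmb8 and Tap2, lie on chromosome 17 in the MHC region.

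Psmb9 and Tap1 are transcribed in opposite directions from RefSeq start sites close to each other, and the bases between those start sites are shown. In GENCODE M21 exons of both genes overlap by 212 bases. The interval is therefore upstream of the RefSeq starts used here and not of every annotated transcript. RefSeq (GRCm38.p6) places the interval at chr17:34187331-34187555. It is 225 bases long with 61.3% G and C, and is written here on the strand of Tap1.

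Tap1-Psmb9 interval: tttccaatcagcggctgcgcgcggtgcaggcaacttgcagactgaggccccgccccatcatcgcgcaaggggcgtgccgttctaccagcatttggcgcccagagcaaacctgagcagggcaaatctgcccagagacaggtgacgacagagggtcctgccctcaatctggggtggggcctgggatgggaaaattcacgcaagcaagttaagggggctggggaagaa

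The RefSeq windows from 250 bases before to 50 bases after the start, which 8 of the 10 genes had, were searched on both strands for the core of the interferon-stimulated response element, GAAA followed by any 2 bases and GAAA, and for the gamma-activated sequence, TTCNNNGAA. The first was found in Erap1 and Psme1, and in 3.45% of all 32544 windows. The second was found in Psmb8, and in 8.33% of all windows. Neither occurred in the windows of Psmb9, Psmb10, Psme2, Tap1 and Tapbp. The 3 matches are shown in capitals, each within 30 bases of the gene's own strand, so that the first motif reads as its reverse complement. They lie at chr13:74639839-74639868, chr14:55578493-55578522 and chr17:34198088-34198117 of GRCm38.p6, and all 3 genes are on the plus strand. Counted from the first transcribed base as 1, the matches run from -4 to 6 in Erap1, from 10 to 19 in Psme1 and from -97 to -89 in Psmb8.

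Erap1: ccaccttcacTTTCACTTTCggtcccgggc
Psme1: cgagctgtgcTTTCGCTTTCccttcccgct
Psmb8: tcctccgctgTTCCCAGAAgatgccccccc

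A match is a description of the letters, and it was not tested whether any factor binds there.

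The spacing of low FPKM values gave estimates, in units of 1e+06 fragments, of 14.6 to 20.4 in the control mice and 7.15 to 13.7 in the depleted mice, with the fewest in A5. Cortical and neuronal markers were abundant in every mouse, with Snap25 at 1031 to 1254 FPKM. Mouse A4 stood apart from the other mice: its Y-linked genes Ddx3y, Eif2s3y, Kdm5d and Uty summed to 5.56 FPKM, against at most 0.16 in each other mouse. Control mouse A3 had Xist at 4.74 FPKM, against 30.9 to 46.7 in the other 5 mice. Results are therefore given with and without A4, and the main counts also without both A3 and A4.

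Most of these genes had higher mean levels in depleted cortex, and the differences were smaller without A4. The mean was higher in depleted mice for 9 of the 10 genes, with Tapbpl as the exception. A4 was the highest of the 6 mice in 9 of the 10 genes, where A4 was highest in 26.9% of all 14385 genes tested. A4 lay above every control mouse in 9 of the 10 genes (36% of all genes tested), A5 in 6 (29.4%) and A6 in 5 (32.9%). With limma on log2(FPKM + 1), 0 of the 10 genes had an adjusted p-value under 0.1, against 4 of all genes tested (0.0278%). An unadjusted p-value under 0.05 with a higher level in depleted mice was found for 3 of the 10 genes, Psmb8, Psme1 and Tapbp, against 4.79% of all genes tested. In the same 3 genes every depleted mouse lay above every control mouse, against 8.21% of all genes tested. Without A4 the same 3 genes were again the ones under 0.05 (5.99% of all genes) and without overlap (14.5% of all genes). The count under 0.05 depended on the other mice as well: it was 1 gene, Psme1, without A2, 2 without A1, 4 without A3, 5 without A5 and 6 without A6. Without both A3 and A4, 4 of the 10 genes were under 0.05 and 5 did not overlap. For these fits, other than the one without A4, the shares of all genes are not given here. Their counts therefore have no background. Separation is more frequent in smaller groups: it was 8.21% of all genes with A4 and 14.5% without. The median log2 fold change of the 10 genes was 0.38, or 0.16 without A4 and 0.26 without A3 and A4, while that of all genes tested was -0.0085. The 3 mice of a group are separate animals, and with 3 in each group the smallest two-sided p-value of an exact permutation test is 0.1. In bulk tissue, more cells that express a gene and more RNA of that gene per cell cannot be told apart.

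**Figure D1:**
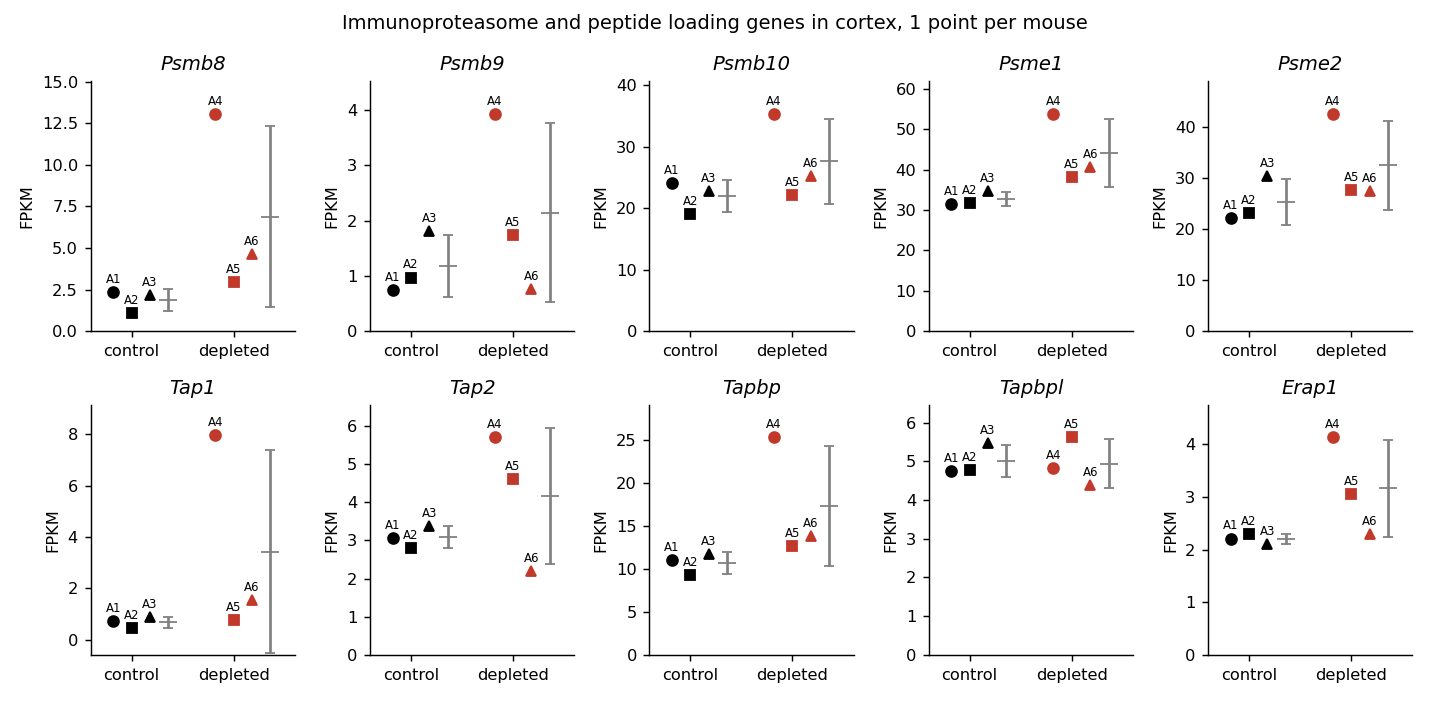
FPKM of each of the 10 genes (vertical axes, linear) in the 3 control mice (black) and the 3 depleted mice (red), 1 point per mouse, with the group mean and SD in grey (n = 3). A4 is the highest point in 9 of the 10 panels, and the groups are separate only in Psmb8, Psme1 and Tapbp.

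Of the inducible catalytic subunits, Psmb8 differed most. Psmb8, the chymotrypsin-like subunit that takes the place of Psmb5, was measured at 2.38 (A1), 1.11 (A2) and 2.17 FPKM (A3) without depletion, against 13.1 (A4), 2.97 (A5) and 4.63 FPKM (A6) after it. The groups did not overlap, and A4 had 6.93 times the control mean, while A5 lay just above the highest control. The log2 fold change of Psmb8 was 1.27 (limma, adjusted p = 0.396, standard error 0.42), from 1.89 ± 0.681 FPKM to 6.89 ± 5.42 FPKM (SD, n = 3). Without A4 it was 0.74 (standard error 0.24). This gene had the highest log2 fold change of the 10, above 99.7% of all genes tested.

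Psmb9, which takes the place of Psmb6, was measured at 0.75 (A1), 0.97 (A2) and 1.81 FPKM (A3) without depletion, against 3.93 (A4), 1.73 (A5) and 0.77 FPKM (A6) after it. Only A4 lay above the control range, and A6 was close to its lower end. Psmb9 had a log2 difference of 0.43 (limma, adjusted p = 0.687, standard error 0.35), and 0.044 without A4. With the longest annotated coding transcript of Psmb9, its value in A6 corresponds to at most about 12 fragments, against 45 in A3 and 73 in A4.

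Psmb10, which takes the place of Psmb7, was the most abundant of the 3 inducible subunits. It was measured at 24.1 (A1), 19.1 (A2) and 22.9 FPKM (A3) without depletion, against 35.3 (A4), 22.2 (A5) and 25.2 FPKM (A6) after it. A5 lay within the control range and A6 slightly above it. For Psmb10 the log2 fold change was 0.29 (limma, adjusted p = 0.562, standard error 0.17), and 0.11 without A4.

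Of the PA28 subunits, Psme1 separated the groups and Psme2 did not. Psme1, the PA28 alpha subunit, was measured at 31.6 (A1), 31.7 (A2) and 34.7 FPKM (A3) without depletion, against 53.9 (A4), 38.3 (A5) and 40.6 FPKM (A6) after it. Each depleted mouse was above each control, and the control mice lay close together (32.7 ± 1.76 FPKM, SD, n = 3). For Psme1 the log2 fold change was 0.41 (limma, adjusted p = 0.378, standard error 0.13), and 0.27 without A4 (standard error 0.073). Psme1 was the only one of the 10 genes with an unadjusted p-value under 0.05 in each of the fits with 1 mouse left out.

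Psme2, the PA28 beta subunit that assembles with Psme1, was measured at 22.3 (A1), 23.1 (A2) and 30.5 FPKM (A3) without depletion, against 42.7 (A4), 27.7 (A5) and 27.4 FPKM (A6) after it. Control mouse A3 lay above both A5 and A6, and the log2 fold change of Psme2 was 0.34 (limma, adjusted p = 0.555, standard error 0.18). Without A3 and A4, a choice made after seeing the data, the log2 fold change of Psme2 was 0.27 (standard error 0.080, adjusted p = 0.477 in limma). Over the alternatives its adjusted p-value in limma ran from 0.375 to 0.912. That the groups did not overlap without A3 and A4 follows from leaving out A3, so no conclusion is drawn from it. Of the 75-base windows in Psme2 transcripts, 22.9% also occur in its near-identical copy Psme2b, which has no row in the table, so the Psme2 level is uncertain where reads could be split between the copies.

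Neither subunit of the transporter separated the groups. Tap1 was measured at 0.71 (A1), 0.45 (A2) and 0.88 FPKM (A3) without depletion, against 7.96 (A4), 0.76 (A5) and 1.56 FPKM (A6) after it. A4 had 11.7 times the control mean, A6 was above each control, and A5 lay among the controls. For Tap1 the log2 fold change was 1.04 (limma, adjusted p = 0.517, standard error 0.51), and 0.35 without A4 (standard error 0.21). On the log2(FPKM + 0.1) scale, which shrinks low values less, the log2 fold change of Tap1 was 1.57 and that of Psmb8 was 1.6.

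Tap2, the other subunit of the transporter, was measured at 3.07 (A1), 2.80 (A2) and 3.37 FPKM (A3) without depletion, against 5.70 (A4), 4.6 (A5) and 2.20 FPKM (A6) after it. A4 and A5 lay above the controls and A6 was the lowest of the 6 mice. For Tap2 the difference on the log2 scale was 0.28 (limma, adjusted p = 0.714, standard error 0.25), and 0.056 without A4. Leaving out A6 gave 0.59 instead, so that 1 depleted mouse moved the value of Tap2 in each direction.

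Of the tapasins, Tapbp was higher in depleted mice and Tapbpl was not. Tapbp, which bridges the transporter and class I heavy chains, was measured at 11.1 (A1), 9.32 (A2) and 11.7 FPKM (A3) without depletion, against 25.4 (A4), 12.7 (A5) and 13.9 FPKM (A6) after it. The groups did not overlap, with A5 and A6 slightly above the highest control, A3. The log2 fold change of Tapbp was 0.59 (limma, adjusted p = 0.440, standard error 0.23), and 0.29 without A4 (standard error 0.11). The annotation places 24.9% of the exonic bases of Tapbp opposite exons of Gm19412, and no source used here states whether the counting used strand. Such overlaps cover 14.7% of the exonic bases of Psmb8 (Gm20496), 14.1% of Tap2 (Gm15821), 5.79% of Psmb9 (Tap1) and 3.87% of Tap1 (Psmb9).

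Tapbpl was measured at 4.75 (A1), 4.78 (A2) and 5.48 FPKM (A3) without depletion, against 4.83 (A4), 5.62 (A5) and 4.38 FPKM (A6) after it. The groups overlapped, and A4, the highest mouse for each other gene, was within the control range. The log2 fold change of Tapbpl was -0.018, with a 95% interval from -0.30 to 0.26 in the limma fit, and its sign was not the same in all fits that omitted 1 mouse.

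Erap1, the aminopeptidase of the endoplasmic reticulum, was measured at 2.21 (A1), 2.30 (A2) and 2.10 FPKM (A3) without depletion, against 4.13 (A4), 3.06 (A5) and 2.29 FPKM (A6) after it. A4 and A5 lay above the controls, and A6 was just under the highest of them. Erap1 had a log2 difference of 0.35 (limma, adjusted p = 0.515, standard error 0.17), and 0.19 without A4. Exons of Cast on the other strand cover 11.5% of the exonic bases of Erap1, and the mean of Cast was 2.49 FPKM in control and 2.83 FPKM in depleted mice.

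**Figure D2:**
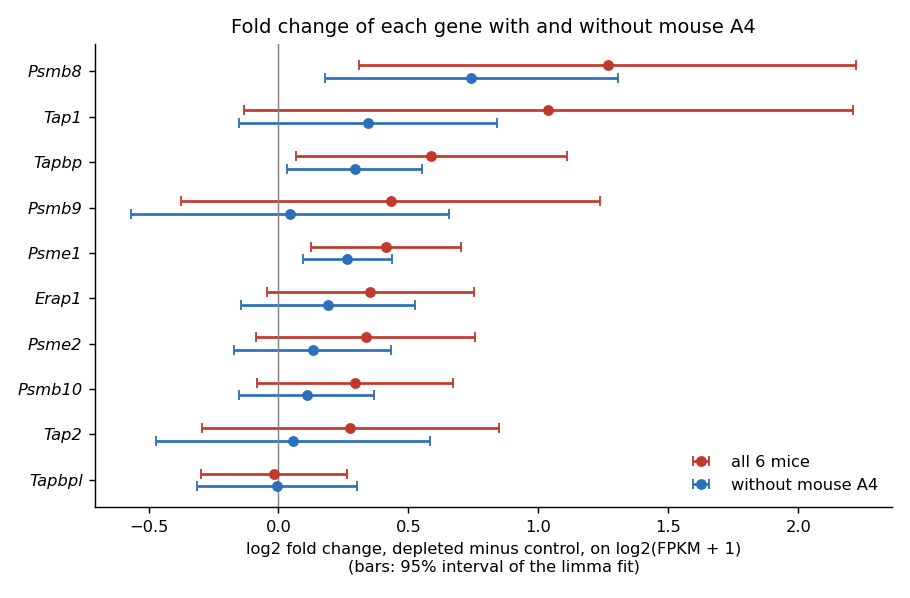
The log2 fold change of each gene (horizontal axis, depleted minus control on log2(FPKM + 1)) with its 95% interval from limma, for all 6 mice (red) and without A4 (blue). Psmb8, Psme1 and Tapbp have intervals above 0 in both fits, and each of the 10 values lies nearer to 0 without A4.

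The genes were expressed at very different levels per length. In control mice the order of mean FPKM was Psme1 (32.7), Psme2 (25.3), Psmb10 (21.98), Tapbp (10.7), Tapbpl (5.0), Tap2 (3.08), Erap1 (2.20), Psmb8 (1.89), Psmb9 (1.18) and Tap1 (0.680). The ranges of neighbours in this order overlapped for Psme2 and Psmb10, for Erap1 and Psmb8, for Psmb8 and Psmb9, and for Psmb9 and Tap1. In depleted mice Psmb8 stood in position 5 of this order in place of 8, Tap1 in position 8 in place of 10, and the ranges of all neighbours overlapped. Without A4, the depleted mean of Tap1 was 1.16 FPKM, again the lowest of the 10 genes, below Psmb9 at 1.25 FPKM. That of Psmb8 was then 3.80 FPKM, below Tapbpl at 5.0 FPKM. The genes also varied together less once A4 was left out. Over the 45 pairs of genes the median Pearson correlation was 0.81 across the 6 mice and 0.39 across the remaining 5. These correlations are a description, as all genes of a mouse were measured in the same library. Among the control mice, A3 had the highest level in 7 of the 10 genes.

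To compare inducible with constitutive subunits, and subunits of 1 complex with each other, log2 ratios of FPKM within a mouse were used for 6 pairs, since scaling between libraries cancels in them. The ratio of Psmb8 to Psmb5 was the only one in which the groups did not overlap. It was -5.12, -6.12 and -5.39 in A1, A2 and A3 and -3.05, -4.84 and -4.39 in A4, A5 and A6, a difference of 1.45 (exact two-sided permutation test, p = 0.1, adjusted p = 0.6 over the 6 pairs), or 0.93 without A4. In these units Psmb8 made up 1.30% to 2.70% of the sum of Psmb8 and Psmb5 in control mice, 10.7% in A4, 3.27% in A5 and 4.47% in A6.

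The ratio of Psmb9 to Psmb6 differed by 0.54 (exact permutation test, p = 0.4), with A5 only slightly above the highest control and A6 inside their range. For Psmb10 to Psmb7 the difference was 0.0096 (exact permutation test, p = 1.0). Psmb7 itself was at 128.8 ± 6.83 FPKM in control and 158.2 ± 12.1 FPKM in depleted mice (SD, n = 3). Psmb10 made up 13.2% to 17.6% of the sum with Psmb7 in every mouse. The PA28 ratio, Psme1 to Psme2, differed by 0.076 (exact permutation test, p = 0.6).

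Tap1 to Tap2 was -1.97, -2.40 and -1.82 in the control mice and 0.47, -2.45 and -0.47 in A4, A5 and A6. Tap1 thus exceeded Tap2 per length in A4 alone, and A5 had the lowest ratio of all (difference 1.25, exact permutation test, p = 0.4). The ratio of Tapbpl to Tapbp was lower by 0.65 in depleted mice (exact permutation test, p = 0.2), with A5 among the controls. All 6 adjusted p-values were 0.6 or higher, and with 3 mice against 3 such a value does not show that the ratios were alike.

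**Figure D3:**
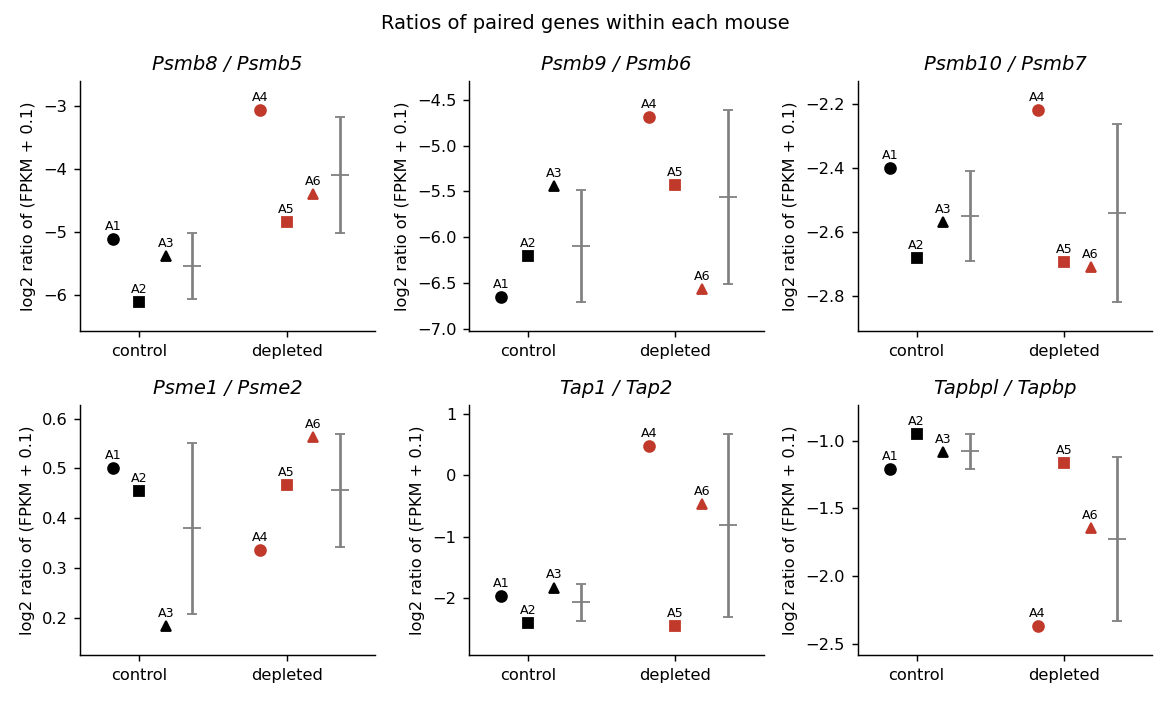
Log2 ratios of FPKM (vertical axes, with 0.1 added to each value) for 6 pairs of genes in each control (black) and depleted (red) mouse, with group mean and SD in grey (n = 3). Only Psmb8 to Psmb5 separates the groups, while Psmb10 to Psmb7 and Psme1 to Psme2 keep nearly the same mean.

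Other proteasome genes were read from lists chosen for their roles. Of the 3 constitutive catalytic subunits, Psmb7 had a log2 fold change of 0.29 (limma, adjusted p = 0.370, standard error 0.080), Psmb5 of 0.15 and Psmb6 of 0.090, the last being -0.028 without A4. Psmb7 was the only 1 of these 3 with an unadjusted p-value under 0.05 (4.79% of all genes tested) and with every depleted mouse above every control (8.21%). Of the 11 alpha and structural beta subunits of the core, 3 had an unadjusted p-value under 0.05 with higher levels (4.79% of all genes tested) and 0 with lower levels. In 4 of the 11, every depleted mouse lay above every control (8.21% of all genes tested). The 11 subunits ran from Psma7 at -0.021 to Psma4 at 0.29, with a median of 0.13. Of the 21 subunits of the 19S regulatory particle, which recognises ubiquitin chains and unfolds substrates, 0 were under 0.05 in limma (median 0.074, from Psmd4 at -0.064 to Psmd5 at 0.15). In 3 of the 21, every depleted mouse lay above every control (8.21% of all genes tested). Among 8 further activators, inhibitors and assembly factors 1 was under 0.05 with a higher level, against 4.79% of all genes tested. It was Pomp, the chaperone of core assembly, at 111.4, 116.7 and 128.0 FPKM in the control mice and 140.0, 149.4 and 141.4 FPKM in the depleted mice, with no overlap and no lead of A4. Its log2 fold change was 0.27 (limma, adjusted p = 0.370, standard error 0.074), and it was named after its value was seen. In the same list the log2 fold change ran from Psmg3 at 0.0084 to Psmg1 at 0.37, and that of Psme3, which forms the nuclear PA28 gamma ring, was 0.051.

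The chaperones that handle class I molecules in the endoplasmic reticulum were lowest in A4 by their median. None of the 6 genes, from Canx at -0.034 to Hspa5 at 0.16, had an unadjusted p-value under 0.05 with all mice in limma. Without A4, 4 had one, each with a higher level (5.99% of all genes tested). Pdia3, a partner of tapasin in the loading complex, was measured at 76.7 (A1), 85.4 (A2) and 87.3 FPKM (A3) without depletion, against 73.1 (A4), 100.8 (A5) and 95.8 FPKM (A6) after it. A4 thus had the lowest level of Pdia3 and A5 and A6 the highest. Calr was lowest in A4 as well, at 174.7 FPKM, against 199.6 to 227.4 FPKM in control mice and 234.5 and 250.3 FPKM in A5 and A6. Of 8 other peptidases that act on class I peptides, 0 were under 0.05 (median 0.0059, from Thop1 at -0.21 to Tpp2 at 0.17). These lists were chosen for their roles, and a difference between them and the 10 genes was not tested.

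On the side of the class I molecules, 5 of the 8 genes tested of 10 heavy chain and B2m genes had an unadjusted p-value under 0.05 and no overlap between the groups, with a median log2 fold change of 0.72, and 0.52 without A4. H2-K1 was highest at 1.01, and H2-T24 was lowest at -0.015. Over all genes tested, 4.79% were under 0.05 with a higher level, and 8.21% had every depleted mouse above every control. H2-D1, a classical heavy chain, was measured at 20.9 (A1), 19.2 (A2) and 24.6 FPKM (A3) without depletion, against 56.0 (A4), 40.6 (A5) and 34.3 FPKM (A6) after it (log2 fold change 0.96, standard error 0.17, adjusted p = 0.283 in limma). B2m, the light chain, was measured at 97.4 (A1), 93.8 (A2) and 88.4 FPKM (A3) without depletion, against 263.1 (A4), 121.7 (A5) and 157.7 FPKM (A6) after it (log2 fold change 0.87, standard error 0.23, adjusted p = 0.370 in limma). Reads of near-identical class I genes could be split among them.

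Of 14 regulators of these genes 12 passed the filter (median 0.14 on the log2 scale), and 3 were under 0.05, each higher (4.79% of all genes tested). The lowest was Rela at -0.25. Nlrc5, the class I transactivator, ranged from 0.06 to 0.14 FPKM without depletion, against 1.73 (A4), 0.20 (A5) and 0.09 FPKM (A6) after it, and was under the filter of the test. Irf1, a direct activator of several members, was measured at 2.02 (A1), 2.56 (A2) and 3.56 FPKM (A3) without depletion, against 4.95 (A4), 1.45 (A5) and 1.47 FPKM (A6) after it. It was highest in A4 and lowest in A5 and A6, with a log2 fold change of -0.15 (limma, adjusted p = 0.902, standard error 0.34). Without A4 the log2 fold change of Irf1 was -0.57 (standard error 0.19, adjusted p = 0.297 in limma), with an unadjusted p-value under 0.05.

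A4 had the highest median of the 6 mice in the 10 genes and in both interferon lists, but not only there. It was also highest for the class I genes (1.24), their regulators (0.34) and the constitutive catalytic subunits (0.33). The same held for the other core subunits (0.22) and the 19S particle (0.12). A4 was not highest for the further activators and assembly factors, and it was lowest for the chaperones and the other peptidases. The median difference from the control mean, on the log2(FPKM + 1) scale, for the 10 genes was 0.73 (A4), 0.23 (A5) and 0.16 (A6). For 29 genes of the type I interferon response, from Oas3 at 0.00033 to Cxcl10 at 2.69, it was 2.44, 0.49 and 0.68. Of these 29, 16 were under 0.05 with a higher level (4.79% of all genes tested) and 21 did not overlap (8.21%). For the 9 genes tested of 11 in a list of interferon-linked GTPases and Cxcl9, the median difference was 2.39, 0.70 and 0.67. Their log2 fold changes ran from Irgm2 at 0.78 to Gbp6 at 1.58, with 7 genes under 0.05. The fold changes of these lists and of the 10 genes share the same mice.

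The summed levels of the pan-myeloid list and of the monocyte and border macrophage list were highest in A4, but not those of each gene in them. The 7 pan-myeloid markers in the table summed to 61.0 to 71.5 FPKM in control mice and to 130.2, 79.3 and 98.4 FPKM in A4, A5 and A6, while the 12 homeostatic microglia markers summed to 109.1 to 132.7 FPKM and to 137.9, 113.9 and 127.8 FPKM. The 8 monocyte and border macrophage markers summed to 8.35 to 9.34 FPKM in control mice, 18.3 FPKM in A4, 9.54 FPKM in A5 and 8.76 FPKM in A6. Against these sums, Itgam was higher in A1 (3.80 FPKM) than in A4 (3.09 FPKM), and Ccr2, Lyve1 and Cd163 were also highest in a mouse other than A4. Pf4, a marker of border macrophages, was lowest in A4, at 0.12 FPKM against 1.38 to 3.23 FPKM in control mice, with a log2 fold change of -0.85. It was the only gene of its list under 0.05 with a lower level. In the same list 1 gene was under 0.05 with a higher level (4.79% of all genes tested). Of the 6 genes of that list that were tested, 4 had a higher level in depleted mice. Of 11 T and NK cell markers in the table, only Cd4 passed the filter. The 11 summed to 2.78 to 3.52 FPKM in control mice and to 4.03, 2.36 and 3.04 FPKM in A4, A5 and A6. Cd3e was listed at 0 in each depleted mouse, and Gzmb and Ifng were listed at 0 in all 6 mice. The part of myeloid cell numbers in the levels of the 10 genes was not tested.

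**Figure D4:**
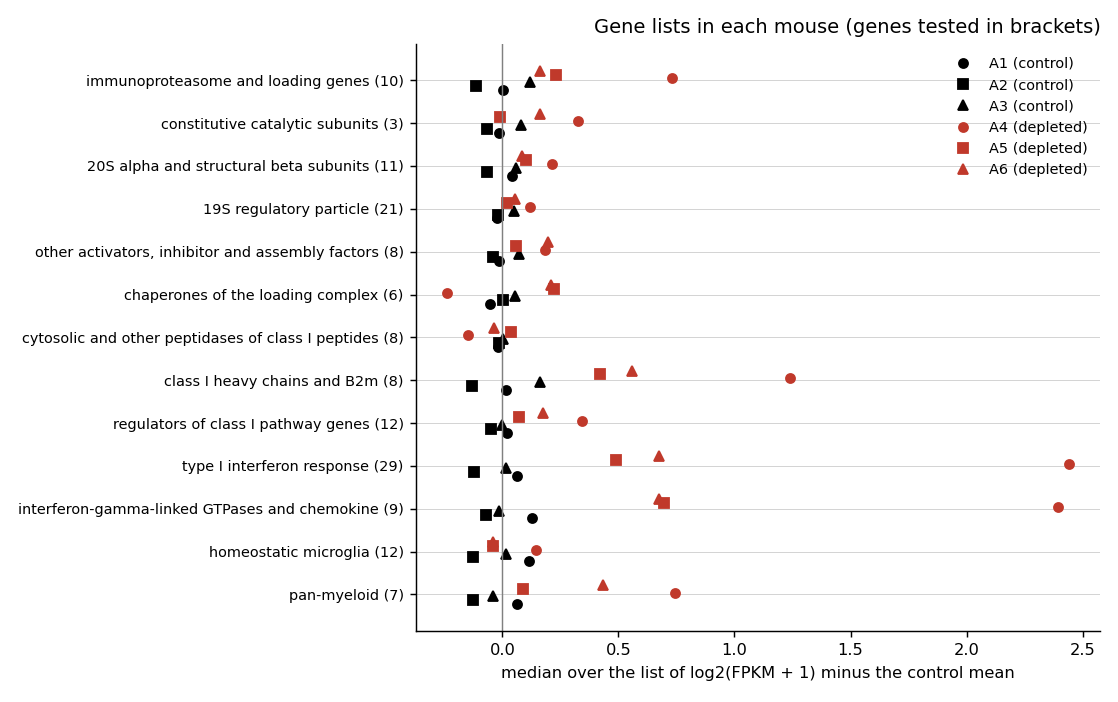
Median over each gene list of log2(FPKM + 1) minus the control mean (horizontal axis) for each control (black) and depleted (red) mouse, with the number of genes tested in brackets. A4 lies farthest to the right for the 10 genes (0.73) and the interferon lists (2.44 and 2.39), and to the left of the other mice for the chaperones.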

How the data were processed

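Cortical RNA of 6 mice was extracted with Trizol and sequenced from TruSeq poly(A) libraries. Paired-end reads of 75 bp were mapped by the authors using TopHat and quantified over known transcripts using RSEM, and the deposited values are FPKM scaled with TMM factors, rounded to 2 decimals. The submitters' processing notes name mm9 and also DESeq; annotation and versions are not given in the sources used here.

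The 14385 genes averaging 0.5 FPKM or more were compared on log2(FPKM + 1) with limma 3.58.1 in R 4.3.3 (eBayes with trend), with Benjamini-Hochberg adjustment over all genes tested and a threshold of 0.1. No covariate was used, as the labels give no batch, litter or date. The fit was tested on simulated data. Ratios within a mouse used FPKM + 0.1 and an exact permutation test. Fragment numbers were estimated from the spacing of low values in 1813 genes with 1 annotated transcript in GENCODE M21; intervals that need counts were not given. Promoter windows came from RefSeq (GRCm38.p6).

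The members and lists were chosen with earlier results of these data known. Named were all members, the ends of each pathway list, set partner genes and the 5 most alike genes; a gene that this rule names is not reported here. Alternatives were another pseudocount, filters, scalings, eBayes without trend, array weights and leaving out each mouse; leaving out A3 and A4 together was added after seeing the data. Python 3.11.15 was used for other steps.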

Additional observations from a re-analysis of the deposited data

How the results depend on the processing

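The number of genes with an adjusted p-value under 0.1 was 4, and it was 20 with array weights, 2 without the trend in eBayes and 2 to 29 when 1 mouse was left out, the highest without A5. The number of the 10 members with every depleted mouse above every control was 3, 5 without A3 and A4, and 3 to 5 with 1 mouse left out. The number with an unadjusted p-value under 0.05 ranged from 1 to 6. Fewer mice in a group make separation more frequent over all genes too, and shares of all genes are given only with and without A4. Tapbpl, at -0.018, turned to 0.050 without A3 and A4, to 0.010 with array weights, and ranged from -0.098 to 0.052 with 1 mouse left out. The difference in the ratio of Psmb10 to Psmb7 ranged from -0.15 to 0.093, with -0.055 without A2, and that of Psme1 to Psme2 from -0.022 to 0.14. The cause of these changes was not tested. The other 9 members kept a higher level in depleted mice under every alternative run, with 0 members at an adjusted p-value under 0.1. No paired analysis was possible because no source used here pairs the mice of the 2 groups. Fragment numbers, lowest in A5, limit Psmb9 and Tap1 most.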

Other observations

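Among the 14375 other genes tested, the 5 whose log2(FPKM + 1) had the highest Pearson correlation over the 6 mice with the mean of the 10 genes were Gm11974 (r = 0.996), Pcsk4 (0.994), Tor3a (0.992), Csf1 (0.992) and D10Wsu52e (0.991). Gm11974 was measured at 2.5 (A1), 1.32 (A2) and 3.47 FPKM (A3) without depletion, against 27.4 (A4), 3.77 (A5) and 3.74 FPKM (A6) after it. Csf1, which encodes a ligand of the receptor that microglia need to survive, was at 5.57 (A1), 5.44 (A2) and 5.71 FPKM (A3) and at 7.61 (A4), 6.08 (A5) and 5.76 FPKM (A6). Its groups were apart only by the small step from A3 to A6 (8.21% of all genes tested had every depleted mouse above every control). Csf1 was picked for its likeness to the mean of the 10 genes, which also separates the groups, so its separation adds no support. With 6 mice, such values are a description, and A4 was the highest mouse in each of the 5 genes. The order of the other mice was not always shared. In Tor3a, A6 (2.71 FPKM) lay below control mouse A3 (2.88 FPKM), while the mean of the 10 genes was higher in A6.

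Other cell type lists gave the following values. All 6 oligodendrocyte genes tested were lower on average in depleted mice (median log2 fold change -0.27, with 3 at an unadjusted p-value under 0.05 in limma), as were all 6 choroid plexus genes (median -0.51, with 4 under 0.05). The share of all genes under 0.05 with a lower level is not given here, so these counts have no background. Of 7 astrocyte genes 1, Gfap, was under 0.05 with a higher level, at a log2 fold change of 1.00, and the median of the list was -0.12. The medians were -0.012 for 8 neuronal genes, 0.14 for 6 endothelial genes, 0.16 for 6 monocyte and border macrophage genes and -0.11 for 8 markers of the cortex. Of the 4 B cell genes, 0 passed the filter.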
